A study of Homo sapiens with 2 samples.

Results

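In TFK-1 cells that carried Flag-tagged HOXA5, 506 of 8043 anti-Flag peaks lay at the ends of at least 2 different protein-coding genes, where a pair of neighbouring genes could share 1 promoter region. A peak was counted when its interval came within 1000 bp of an end of 2 or more protein-coding genes of GRCh38 and shared no base with a peak of the control library. Of the 7599 peaks without a control peak, 6.66% met this rule. The 506 peaks touched 1024 different genes in 503 different nearest pairs. Some of these pairs are a single start under 2 gene names. At the 25 peaks whose nearest ends were starts on the same strand, the median distance between both was 0 bp. Both nearest genes had a known direction at 397 peaks, and in 319 of them (80.4%, exact 95% binomial interval 76.1 to 84.1%) the genes started next to each other and ran apart, so that candidate bidirectional promoters made up most but not all of the peaks.

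HOXA5 is a homeodomain transcription factor, and homeodomains contact short DNA sites built around the letters TAAT. A bidirectional promoter is a short stretch of DNA, usually rich in CpG, from which genes on opposite strands are transcribed in opposite directions. Such promoters are common in the human genome and are known for housekeeping genes, in particular those of DNA repair, mitochondria and RNA processing.

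CUT & Tag uses an antibody to bring a transposase to a protein on DNA, and the transposase tags the DNA nearby. TFK-1 is a cell line of human extrahepatic cholangiocarcinoma. The LV-HOXA5 cells (HOXA5 overexpression in the labels) were a stable line made with a Flag-HOXA5 lentivirus and puromycin, and the LV-HOXA5-NC cells (normal control in the labels) carried its negative control virus. Both were examined with the same anti-Flag antibody, with 1 library each. The tagged protein was thus an overexpressed one in a single cell line, and with 1 library per condition no difference between the conditions could be tested. Duplicates removed, LV-HOXA5 had 15778555 fragments and 8043 peaks, and LV-HOXA5-NC had 1948734 fragments, 12.4% of that depth, and 635 peaks.

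To show what the DNA at these peaks looks like, the bases between both gene starts are given for the 6 head-to-head pairs of highest fold enrichment whose starts had 30 to 250 bp between them and for which the starts in the RefSeq promoter table (GRCh38.p14) were the same as the gene ends. Each runs 5′ to 3′ on the plus strand from the base after the start of the minus-strand gene, named first, to the base before the start of the plus-strand gene. Capitals mark the letters of motifs on either strand. In these 6 sequences they are the homeodomain core TAAT with its longer form TAATT, the ETS core CCGGAA, the NFY box CCAAT and the GC box GGGCGG. The longer form of the homeodomain core contains the shorter, and an NFY box can share bases with a TAAT core.
GIN1/PPIP5K2: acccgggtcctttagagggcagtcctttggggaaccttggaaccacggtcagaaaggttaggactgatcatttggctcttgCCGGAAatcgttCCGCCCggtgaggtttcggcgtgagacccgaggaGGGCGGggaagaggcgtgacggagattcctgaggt
TUBD1/RPS6KB1: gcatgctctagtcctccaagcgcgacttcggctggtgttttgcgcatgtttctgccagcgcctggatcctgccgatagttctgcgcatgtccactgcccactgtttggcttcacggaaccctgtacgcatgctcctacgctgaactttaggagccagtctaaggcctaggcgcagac
RECQL/GOLT1B: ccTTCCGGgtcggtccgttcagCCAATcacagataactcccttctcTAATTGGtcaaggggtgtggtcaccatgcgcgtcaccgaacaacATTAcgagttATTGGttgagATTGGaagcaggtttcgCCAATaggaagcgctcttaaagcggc
CYB561A3/TMEM138: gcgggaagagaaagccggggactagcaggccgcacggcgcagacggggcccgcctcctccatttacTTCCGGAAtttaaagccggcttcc
TMEM53/ARMH1: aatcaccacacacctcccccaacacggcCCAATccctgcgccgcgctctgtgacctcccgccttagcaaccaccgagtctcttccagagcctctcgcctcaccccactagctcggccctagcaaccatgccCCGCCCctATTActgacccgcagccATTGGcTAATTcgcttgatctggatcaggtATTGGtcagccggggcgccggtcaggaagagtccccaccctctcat
NOP16/HIGD2A: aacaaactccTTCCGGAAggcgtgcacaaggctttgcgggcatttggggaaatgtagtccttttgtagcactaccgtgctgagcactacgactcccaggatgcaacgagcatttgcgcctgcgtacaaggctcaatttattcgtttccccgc

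The first sequence (chr5:103120139-103120300, 162 bases) separates GIN1 from PPIP5K2, an inositol pyrophosphate kinase, and its peak had a fold enrichment of 8.28 with the summit inside GIN1. The second (chr17:59892944-59893120, 177 bases) lies between TUBD1, which encodes delta-tubulin, and RPS6KB1, a kinase of ribosomal protein S6, and it held none of the letters searched although its peak reached a fold enrichment of 7.47. The third (chr12:21501636-21501788, 153 bases) lies between RECQL, a DNA helicase, and GOLT1B, a vesicle transport protein. It held 5 CCAAT boxes and 2 TAAT cores, and the peak (27 fragments at the summit, fold 7.29) had its summit at base 6 of the sequence. The other sequences (chr11:61362284-61362373, chr1:44674482-44674713 and chr5:176388599-176388750) had summits outside the printed bases, inside 1 of the genes, with folds of 7.1, 7.07 and 6.9. Of the 6 pairs, TMEM53/ARMH1 and RECQL/GOLT1B held a TAAT core between the starts. A match of letters is a description of the sequence and shows no binding site.

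The direction of the genes separated these peaks from the annotation. Of the 397 peaks with both directions known, 233 (58.7%) were head to head with a gap between the starts, 86 (21.7%) were head to head with the starts overlapping, 52 (13.1%) were at head-to-tail pairs, the end of a gene beside the start of the next, 25 (6.30%) were at starts on the same strand and 1 was at ends on the same strand. No peak had its nearest pair tail to tail, where both genes end. Among the 3585 close pairs of protein-coding gene ends in the annotation (2000 bp or less apart, both directions known), 865 (24.1%) were head to head, 335 (9.34%) head to head and overlapping, 934 (26.1%) head to tail and 921 (25.7%) tail to tail. Tail-to-tail pairs were about as frequent as head-to-head pairs in the annotation, and none was the nearest pair of a peak. The direction of at least 1 gene was not known for the other 109 peaks.

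**Figure D1:**
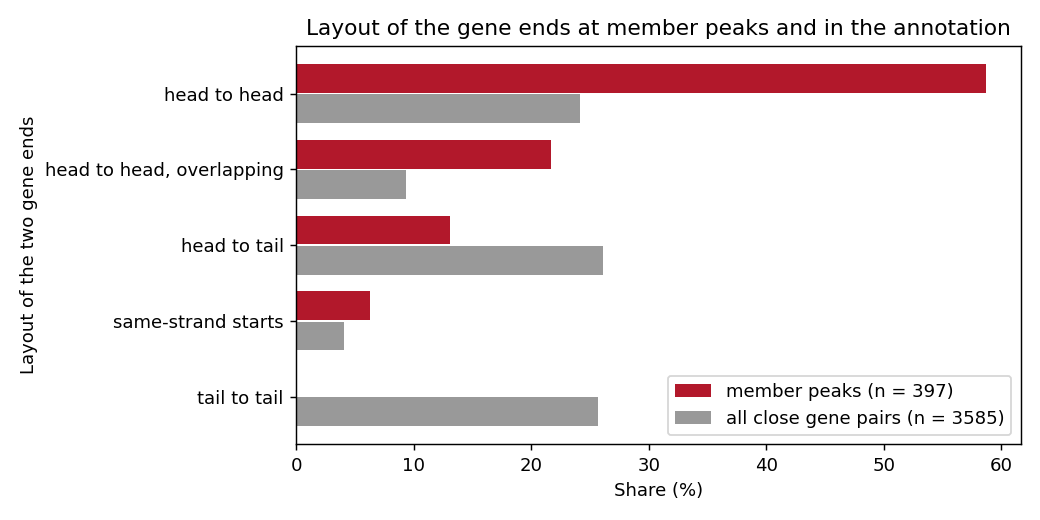
Share of layouts (%, horizontal axis) among the 397 peaks at gene pairs of known direction (red) and among all 3585 close pairs of protein-coding gene ends (grey). Head-to-head pairs made up 58.7% of the peaks against 24.1% of the pairs, and tail-to-tail pairs 0% against 25.7%, while the 1 peak at ends on the same strand is not drawn.

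Read the other way round, from the gene pairs to the peaks, 247 of 865 head-to-head pairs (28.6%, 25.6 to 31.7%) had a peak near both ends, and so did 92 of 335 overlapping head-to-head pairs (27.5%, 22.8 to 32.6%). Over close pairs of every layout the share was 556 of 5066, or 11.0%. Head-to-tail pairs reached 6.42% (4.94 to 8.19%) and tail-to-tail pairs 0.326% (0.0672 to 0.949%), with 3 of 921. The intervals of both head-to-head layouts did not overlap those of head-to-tail or tail-to-tail pairs, but they cover counting error only, and neighbouring genes are not independent replicates.

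At head-to-tail pairs the peak was mostly nearer to the start. This held for the summit in 40 of 52 pairs (76.9%, 63.2 to 87.5%), with median distances of 216 bp to the start and 643 bp to the end, and 35 of the 52 summits lay between both. A start of a gene with known direction was within 1000 bp of 466 of the 506 peaks. Starts of genes without a known direction could not be counted. Of the 397 peaks with both directions known, only 1 had no start in its nearest pair.

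The share of head-to-head pairs with a peak rose with the distance between the starts up to 1000 bp. It was 15.9% (33 of 207) below 100 bp, 26.3% (67 of 255) from 100 to 200 bp, 36.1% (91 of 252) from 200 to 400 bp and 46.0% (46 of 100, 36.0 to 56.3%) from 400 to 1000 bp. From 1000 to 2000 bp it was 19.6% (10 of 51, 9.82 to 33.1%), and there fewer positions lie near both starts. Head-to-tail pairs stayed between 4.44 and 9.41% in the same bins.

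**Figure D2:**
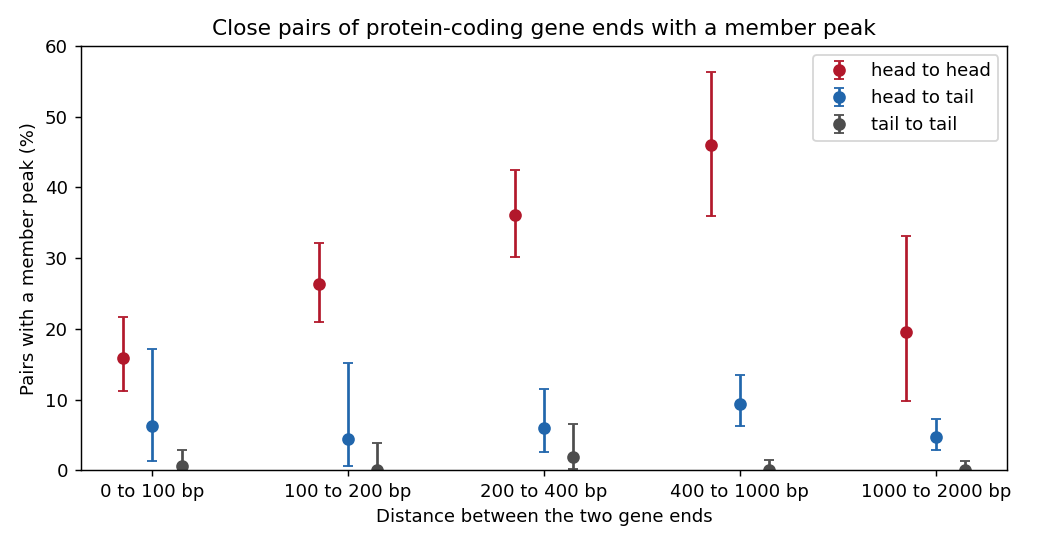
Share of close gene pairs with a peak near both ends (%, vertical axis) by the distance between the ends (bp, horizontal axis) for 3 layouts, with exact 95% binomial intervals as bars. Head-to-head pairs (red) rise from 15.9% to 46.0% at 400 to 1000 bp, head-to-tail pairs (blue) stay below 10% and tail-to-tail pairs (dark grey) reach at most 1.85%.

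A start with a head-to-head neighbour had a peak more often than a start without any neighbour. Among 2162 head-to-head starts, 634 (29.3%, 27.4 to 31.3%) had an LV-HOXA5 peak without control peak within 1000 bp, against 1070 of 10460 starts (10.2%, 9.66 to 10.8%) with no other protein-coding gene end within 5000 bp and 141 of 975 starts (14.5%, 12.3 to 16.8%) with a neighbour in another layout. A window around a head-to-head start also holds the start of its neighbour. Counting only peaks that covered the start itself, the shares were 16.5%, 5.48% and 8.92%.

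The difference was also present within classes of CpG content. In percentage points it was narrower among CpG-rich promoters than over all. Among the others it was not narrower for peaks nearby, but it was narrower for peaks over the start. With a CpG ratio (observed over expected CpG in 300 bases) of 0.6 or more, 30.5% of head-to-head starts and 14.7% of lone starts had a peak nearby, and 17.4% (15.7 to 19.2%) and 8.02% (7.35 to 8.73%) were covered by one. Below a ratio of 0.6, the shares with a peak nearby were 23.3% and 3.93%, and 11.9% (8.69 to 15.8%) and 1.91% (1.52 to 2.36%) were covered by one. Gene ends at the 3′ side had few peaks, with 51 of 10146 lone ends (0.503%).

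**Figure D3:**
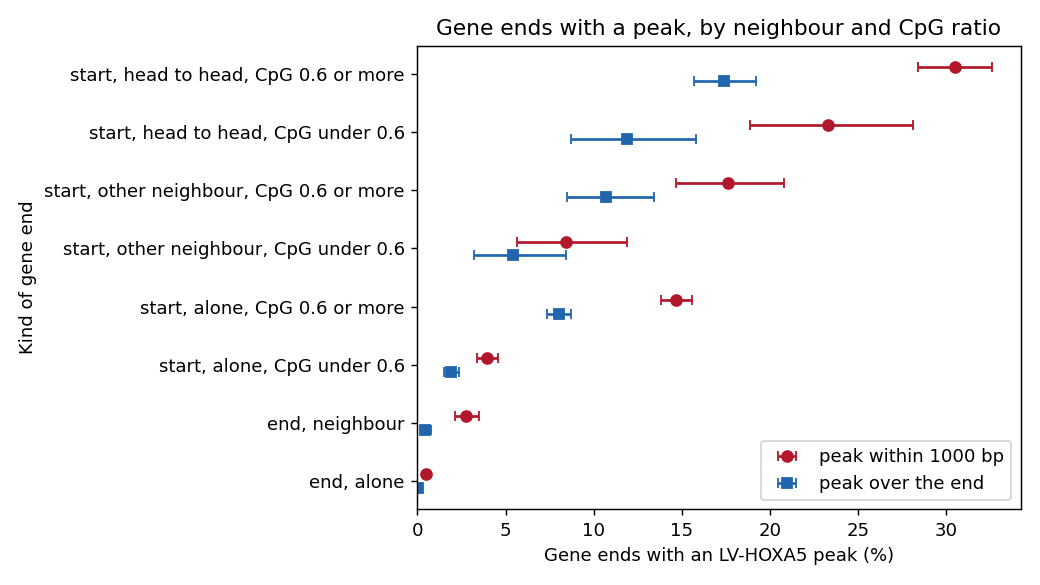
Share of gene ends (%, horizontal axis) with an LV-HOXA5 peak within 1000 bp (red circles) or over the end itself (blue squares), by kind of end and CpG ratio of the promoter, with exact 95% binomial intervals. Head-to-head starts with a CpG ratio of 0.6 or more stand at 30.5 and 17.4%, lone starts of the same CpG class at 14.7 and 8.02%, and lone 3′ ends at 0.503 and 0.0394%.

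The summits were not confined to the space between the gene ends. Over all 506 peaks the 2 nearest ends were a median of 297 bp apart (272 to 328), and the summit lay between them in 254 (50.2%, 45.8 to 54.6%). At the 233 head-to-head pairs with a gap, 117 summits fell between the starts, 61 inside the minus-strand gene and 55 inside the plus-strand gene, nearly equal numbers on both sides. The median distance from the midpoint was 126 bp without regard to side. With the side counted, positive towards the plus-strand gene, the median was -26.5 bp (quartiles -132 and 116 bp), so the summits were spread around the midpoint.

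The position changed with the gap. With starts less than 100 bp apart, 1 of 30 summits lay between them and 29 lay inside a gene, a median of 170 bp from the midpoint. From 100 to 200 bp the share between the starts was 22.7% (15 of 66), from 200 to 400 bp 62.8% (54 of 86) and from 400 to 1000 bp 93.2% (41 of 44, 81.3 to 98.6%). A wider gap holds more of any set of positions. The median distance from the midpoint was 170, 153, 103 and 91.8 bp in these 4 bins. The rule bears on this distance too, because a peak must come within 1000 bp of both starts and a wider gap leaves less room outside them. What part of the change comes from the rule was not tested. From 1000 to 4000 bp, with 7 peaks, 6 summits lay between the starts and the median distance was 404 bp. The bin from 400 to 1000 bp had the highest median fold (5.96, against 4.75 below 100 bp).

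**Figure D4:**
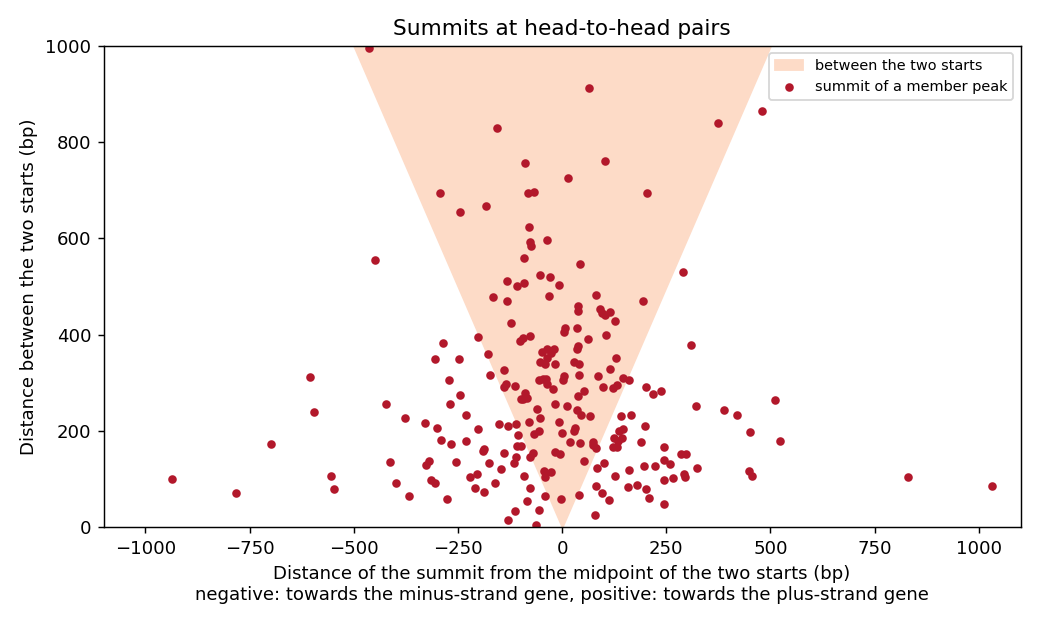
Summit of each peak at a head-to-head pair up to 1000 bp wide, by its distance from the midpoint of both starts (bp, horizontal axis, positive towards the plus-strand gene) and the distance between the starts (bp, vertical axis). Points in the shaded wedge lie between the starts, which holds for 1 of 30 peaks below 100 bp and 41 of 44 from 400 to 1000 bp.

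The summits were also placed against the nearest start. Of 1278 such peaks, 804 (62.9%, 60.2 to 65.6%) had the summit upstream of the start, with a median of 94.5 bp upstream. At the 319 head-to-head pairs, 164 (51.4%, 45.8 to 57.0%) of the summits were upstream of the nearest start, with a median of 9 bp upstream. Upstream of a head-to-head start is also the way to its partner, so that past the midpoint the partner becomes the nearest start.

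In height, the peaks resembled the other peaks of the library. The pileup, which counts the fragments that cover the summit, ranged from 8 to 112 with a median of 18 (17 to 19), against 16 (16 to 17) for 1591 peaks at 1 protein-coding end and 17 for all 8043. The fold, which sets the pileup against the fragments around the peak in the same library, ranged from 2.89 to 11.5 with a median of 4.95 (4.82 to 5.09), against 4.85 (4.79 to 4.92) and 4.82. The intervals of the folds overlapped. The length had a median of 430 bp (407 to 458), longer than the 398 bp (388 to 410) of peaks at 1 end and the 383 bp of all peaks. A longer interval comes within the limit of more ends, so the rule itself bears on this difference. The intervals are exact order-statistic intervals of the median and cover counting error over peaks.

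No peak at 2 gene ends shared a base with a control peak (0 of 506, which allows a share of up to 0.593% by the limit of 3 counts and 0.726% by the exact 95% binomial interval), against 10 of 1601 at 1 end (0.625%) and 434 of 5936 at none (7.31%). The control library was too shallow for this to separate Flag-HOXA5 from signal that both libraries share. Scaled to its depth, the median peak would have held 2.22 fragments, and 48 of 506 (9.49%) would have reached 4 fragments, the lowest pileup in the control list. Among peaks at 1 end 8.11% would have done so. Signal of the tagged protein and signal present in both libraries therefore cannot be told apart at most of these peaks.

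The 10 peaks of highest fold are described with their genes. The first lay at TNRC6B, an Argonaute partner in gene silencing by microRNAs, and FAM83F (chr22:40044227-40044757), with 37 fragments (exact Poisson interval 26.1 to 51.0) and a fold of 11.5. It was 77 bp from the nearer of both ends and 693 bp from the other. ATF7, a transcription factor of the CREB/ATF family, and its readthrough ATF7-NPFF followed with 10.3 (chr12:53625993-53626523, 41 fragments). Both entries have the same start, so this peak counts a single promoter under a pair of names.

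TMEM60/PHTF2 had the highest fold of the head-to-head pairs with a gap, at 9.37 (chr7:77798241-77798919, 47 fragments, interval 34.5 to 62.5). The peak covered both starts, which are 339 bp apart. RAB5B, a GTPase of early endosomes, and CDK2, a kinase of the G1 to S transition, shared a peak of 59 fragments and a fold of 8.88 (chr12:55973592-55974407), which covered the RAB5B end and lay 803 bp from the CDK2 end. The peak at RBM15, an RNA-binding protein of the m6A writer complex, and the predicted gene LOC124904276 had a fold of 8.61 and covered both ends.

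The next 5 had folds from 8.52 to 8.34. They were B9D2, a protein of the ciliary transition zone, with TMEM91 (67 fragments), RPS6KA5, a kinase of histone H3, with DGLUCY (35 fragments), and NRL, a photoreceptor transcription factor, with DCAF11, a substrate receptor of CUL4 ligases (62 fragments). USP5, a deubiquitinase, with CDCA3, a regulator of mitotic entry, had 58 fragments, and PRKCSH, the beta subunit of glucosidase II, with ODAD3 had 29. Of these 10 peaks, 6 were head to head, 1 was at starts on the same strand and 3 had no known direction for 1 of the genes. The highest pileup, 112 fragments (92.2 to 135), was at RRAS, a small GTPase, and SCAF1 (chr19:49640068-49640779), where the fold was 7.70 because the local background was 13.7 fragments.

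The 5 lowest folds were 3.16 at RXRB/SLC39A7, 3.03 at GPR137/BAD/PLCB3, 3.00 at ZBTB32/KMT2B, 2.91 at COQ8B/ITPKC and 2.89 at THOC6/HCFC1R1. Their pileups were 10, 17, 17, 22 and 21 fragments. The THOC6 peak, at a gene for messenger RNA export, held as many fragments as the peak at TRIM23 (21, fold 8.31), and the local backgrounds were 6.61 and 1.65 fragments.

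Of the 506 peaks, 479 had 2 protein-coding genes, 26 had 3 and 1 had 4. The highest folds among the 27 with 3 or more were 8.31 at TRIM23/TRAPPC13/SHLD3, 7.35 at LOC124903762/TAOK2/TMEM219, 7.18 at SF3B6/FAM228B/TP53I3, 7.05 at HOXC4/HOXC5/HOXC6 and 6 at LOC124902602/PRCP/DDIAS. TRIM23 and TRAPPC13 start 694 bp apart, and SHLD3, a subunit of the shieldin complex, has an end 386 bp from the peak, as does TRAPPC13. The HOXC peak lay 824 bp from a single start that the annotation gives to all 3 HOXC genes. The DDIAS region had a second peak (PRCP/DDIAS/LOC124902602, fold 4.71).

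In 3 pairs, 2 separate peaks met the rule. At DHX32/FANK1 the peaks had 18 and 19 fragments, at KIAA0586/TIMM9 10 and 14, and at GGNBP2/MYO19 14 and 13, so the peaks of a pair were of equal height within counting error. By position, 145 of the 506 peaks covered 2 or more gene ends, 240 covered exactly 1 and 121 covered none. At the limit of 1000 bp, the last peaks inside were DCAF7/KCNH6 (996 bp to the farther end, fold 5.50), PTDSS1/MTERF3 (997 bp, 4.40) and HNRNPH3/PBLD (998 bp, 4.59). The first outside were H2BC21/H2AC20 (1008 bp, 3.64), RASIP1/MAMSTR (1008 bp, 4.58) and PCNX3/MAP3K11 (1012 bp, 8.05).

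The promoters under the peaks were almost all rich in CpG. Of 614 RefSeq promoters (250 bases before to 50 after the start) that overlapped a peak at 2 gene ends, 94.8% (92.7 to 96.4%) had a CpG ratio of 0.6 or more. The share was 94.1% of 947 promoters under peaks at 1 end, 83.2% of 1216 head-to-head promoters without a peak and 62.8% of all 15842 protein-coding promoters. The CpG content therefore did not separate peaks at 2 ends from peaks at 1 end.

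The homeodomain core was somewhat less frequent under the peaks than in all promoters and somewhat more frequent than in head-to-head promoters without a peak. The intervals overlapped in both comparisons. TAAT or its complement ATTA was found in 38.3% (34.4 to 42.2%) of the 614 promoters under a peak and 36.9% of promoters under peaks at 1 end. It was found in 33.3% (30.7 to 36.0%) of head-to-head promoters without a peak and 42.4% (41.6 to 43.1%) of all promoters. TAATT, which contains TAAT, was found in 16.1% (13.3 to 19.3%) of the promoters under a peak and 19.3% (18.6 to 19.9%) of all promoters. The GC content had medians of 62.7% and 62.3% in these 2 sets. At head-to-head pairs the median fold was 5.20 (4.89 to 5.55) at 99 peaks with TAAT in a promoter and 5.01 (4.68 to 5.51) at 122 without. These windows cover only part of each peak.

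Of the 12 motifs, the NFY box differed by the most percentage points between head-to-head promoters with and without a peak. CCAAT or ATTGG was found in 55.7% (51.7 to 59.7%) of the promoters under a peak and 59.7% (54.5 to 64.8%, n = 370) of those at head-to-head pairs, against 36.8% (34.0 to 39.5%) of head-to-head promoters without a peak and 35.8% of all. Promoters under peaks at 1 end had it in 53.6% (50.4 to 56.9%), so it was shared by both kinds of peak. The median fold was 5.36 (4.96 to 5.64) at 148 head-to-head pairs with the box and 4.69 (4.48 to 5.24) at 73 without it, with intervals that overlapped.

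ACTACAA or TTGTAGT, the core bound by ZNF143, was found in 10.5% (7.60 to 14.1%) of head-to-head promoters under a peak, 4.44% (3.35 to 5.75%) of those without, 3.48% (2.41 to 4.86%) of promoters under peaks at 1 end and 2.94% of all. The ETS core CCGGAA was found in 42.2% (37.1 to 47.4%) of head-to-head promoters under a peak and 37.5% (34.8 to 40.3%) of those without, both above the 22.3% of all promoters. TATAAA went the other way, with 2.43% and 5.51% against 10.2%. GGGCGG stood at 74.3%, 66.6% and 56.7% in the same order, the NRF1 letters GCATGCGC at 7.84%, 7.48% and 3.95% and the YY1 letters ATGGCGGC at 9.19%, 7.48% and 4.31%. The CREB letters TGACGTCA were at 2.70%, 3.37% and 2.49%, the E2F letters TTTCCCGC at 2.43%, 4.77% and 2.16% and the E-box CACGTG at 10.8%, 9.38% and 8.45%. The promoters of a head-to-head pair overlap and share bases, so that they are not independent counts.

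**Figure D5:**
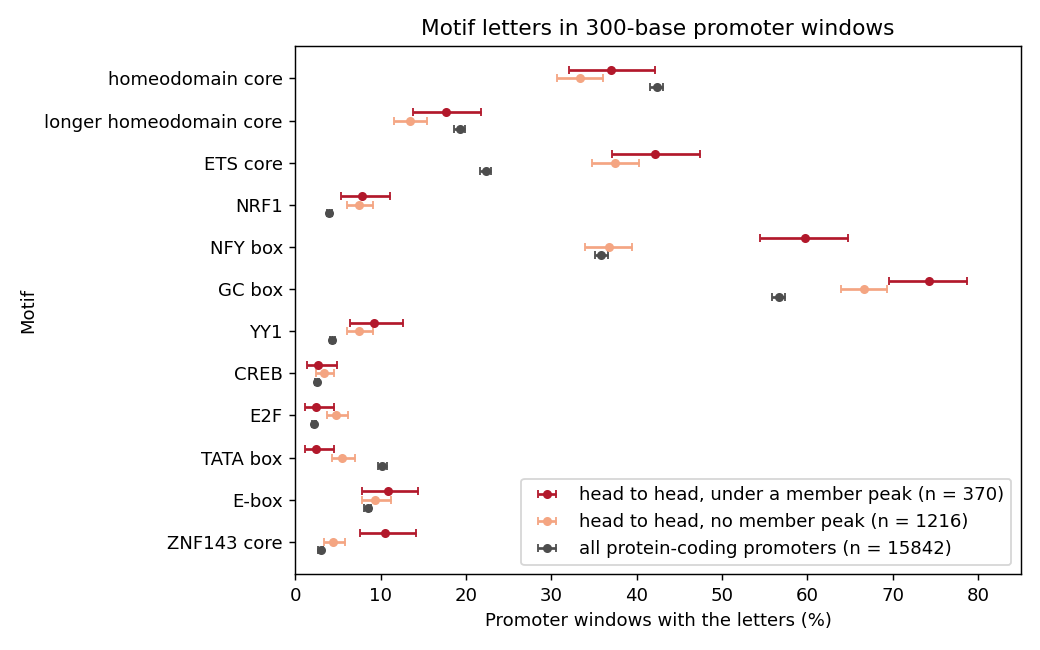
Share of 300-base promoter windows (%, horizontal axis) that hold the letters of 12 motifs on either strand, for head-to-head promoters under a peak (red, n = 370), head-to-head promoters without one (orange, n = 1216) and all protein-coding promoters (dark grey, n = 15842), with exact 95% binomial intervals. The NFY box stands at 59.7% against 36.8% and the ZNF143 core at 10.5% against 4.44%. The homeodomain core is below its share in all promoters in both head-to-head sets, with overlapping intervals for the set under a peak.

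The genes with a peak at 2 gene ends were read against 2 backgrounds, 5.11% of all 20056 protein-coding genes and 14.1% of 7286 genes. Those 7286 have an end within 2000 bp of another and so could have been counted. In the lists below, a gene without such a peak can still have another LV-HOXA5 peak. Of all 20056 genes, 12.9% (2589) had any LV-HOXA5 peak without a control peak within 1000 bp. Counting any peak gave 10 of 39 proteasome genes in place of 1 and 23 of 78 cell cycle genes in place of 7. For RNA polymerase subunits it gave 7 of 33 in place of 6. The 14.1% holds close pairs of every layout, whereas 28.6% of head-to-head pairs had a peak near both ends. Layouts within each list were not counted, so a share above 14.1% can come with more head-to-head pairs. The 34 textbook genes were listed for shared divergent promoters and so were chosen for being head to head. Their layouts in this annotation were not counted either, and 30 of the 34 were in close pairs. Of the 34, 16 had a peak (53.3%, 34.3 to 71.7%, of the 30 in close pairs). SARS2/MRPS12, a mitochondrial synthetase and ribosomal protein, had a fold of 6.38, PDCD10/SERPINI1 6.10, ATM/NPAT, a kinase of the DNA damage response and an activator of histone genes, 5.51 and HSPD1/HSPE1, the mitochondrial chaperonins, 5.31. The other pairs of that list with a peak were TBP/PSMB1, GABPA/ATP5PF, TK1/AFMID and TBCB/POLR2I, with folds of 5.33, 4.92, 4.84 and 3.82.

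Genes of DNA repair had a peak in 15 of 69 (30%, 17.9 to 44.6%, of the 50 in close pairs). They included RECQL, PALB2, a partner of the recombinase loaders (6.45, with DCTN5), and FANCB of the Fanconi core complex (6.56, with MOSPD2). The base excision nuclease APEX1 (5.85, with OSGEP) and the end-joining factors XRCC6 and NHEJ1 (both 5.69) had one too. Of 56 DNA replication genes, 8 had a peak (28.6%, 13.2 to 48.7%, of 28 in close pairs). ORC6, a subunit of the origin recognition complex, shared a peak of 36 fragments and a fold of 7.44 with VPS35, and PCNA, the sliding clamp, shared one of 42 fragments and 7.38 with CDS2. ORC4 with MBD5 (5.60) and CDC45 with UFD1 (5.43) followed.

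Cell cycle and mitosis genes had a peak in 7 of 78, or 20.6% (8.70 to 37.9%) of the 34 in close pairs. The highest folds were at CDK2 (8.88), the condensin subunit NCAPD2 (6.21, with MRPL51), the transcription factor E2F3 (6.04) and the condensin subunit SMC4 (5.86, with IFT80). The E2F3 peak lay 150 bp from an end of E2F3, a start or a 3′ end, at a head-to-tail pair. The CDK2 peak covered the RAB5B end and lay 803 bp from the CDK2 end. The direction of RAB5B, CDK2 or both was not known, so whether this was the start or the 3′ end of CDK2 was not determined. Of 27 genes that the study named for effects of HOXA5 or MXD1, 2 had a peak of this kind, CDK2 and PCNA. For PCNA it was at a head-to-head pair, and for CDK2 near the end of undetermined kind. In close pairs were 4 of the 27. That list was chosen by the study on these cells and is not independent evidence.

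Among genes of mitochondria, 8 of 77 mitochondrial ribosomal protein genes (15.4% of 52 in close pairs, 6.88 to 28.1%), 7 of 46 genes of respiratory complex I (20.0% of 35, 8.44 to 36.9%) and 3 of 26 genes of protein import (17.6% of 17, 3.80 to 43.4%) had a peak, shares near the background of 14.1%. Examples were MRPS28/TPD52 (6.81), VMAC/NDUFA11 (6.90) and LNP1/TOMM70 (6.94). Of 35 aminoacyl-tRNA synthetases, 5 had a peak (26.3% of 19, 9.15 to 51.2%), with CARS2/ING1 at 5.36.

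Genes of RNA processing and transcription included 7 of 38 SRSF and HNRNP splicing factors (46.7% of 15 in close pairs, 21.3 to 73.4%). GLA/HNRNPH2 had a fold of 7.15, CBX5/HNRNPA1 6.59, CBX3/HNRNPA2B1 6.15 and SRSF2/MFSD11 5.33. HNRNPA1 and HNRNPA2B1, which encode related proteins, were thus each paired with a gene of the heterochromatin protein 1 family. Of 33 RNA polymerase subunit genes 6 had a peak (26.1% of 23, 10.2 to 48.4%), from POLR1D with LNX2 at 6.04 to POLR2A with ZBTB4 at 3.54.

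Cytosolic ribosomal protein genes had a peak in 7 of 89 (17.1% of 41, 7.15 to 32.1%), with RPL9/LIAS at 5.87, and proteasome genes in 1 of 39 (5.88% of 17), PSMB1 with TBP. Of 76 replication-dependent histone genes 16 had a peak (29.6% of 54, 18.0 to 43.6%), in 8 pairs of fold 5.01 at most (H2BC5/H1-4). Histone genes are near-identical copies, so reads can be placed at the wrong copy, and the same holds for SRGAP2B/FAM72D (fold 7.65) in a duplicated region of chromosome 1. ZNF zinc finger genes had a peak in 14 of 517 (9.86% of 142, 5.50 to 16.0%), led by ZNF8/ZNF544 at 6.11. HOX genes had 3 of 39 (15% of 20), all at the HOXC start given above.

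The olfactory receptor genes, which are silent in most tissues, had no peak of this kind, with 0 of 392 (36 in close pairs, interval 0 to 9.74%). The cadherin and protocadherin genes, most of which are not epithelial although CDH1 is, had 0 of 89 (51 in close pairs, interval 0 to 6.98%). The layouts of these close pairs were not counted, and of all close pairs at ends on the same strand only 2 of 384 (0.521%) had a peak. A link to expression was not tested. Every list was read against its close pairs because a gene far from others could not have been counted.

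The peaks were spread over 23 chromosomes, with 52 on chromosome 19, 49 on chromosome 1, 44 on chromosome 2, 38 on chromosome 17 and 36 on chromosome 12, and none on Y. As a share of genes in close pairs, chromosome 14 (23.8%, 18.6 to 29.6%), chromosome 5 (23.2%, 18.5 to 28.5%), chromosome 21 (21.6%, 11.3 to 35.3%) and chromosome 2 (20.9%, 17.2 to 25%) were highest. Apart from Y, with 4 such genes, chromosome 13 (7.87%, 3.22 to 15.5%), chromosome 22 (6.90%, 3.82 to 11.3%) and chromosome X (6.87%, 3.98 to 10.9%) were lowest, beside the 14.1% of all such genes.

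The local background of the peaks differed between chromosomes more than the fold did. Its median was 4.84 fragments on chromosome 19 and 3.96 on chromosome 17, with a median pileup of 25 on both, against 1.64 on chromosome 4, 1.64 on chromosome 18 and 1.65 on chromosome 13, with pileups of 12, 15 and 15. The median folds of these chromosomes were 4.71, 5.13, 4.91, 4.79 and 5.71. A ranking by pileup therefore favours chromosomes 17 and 19, which a ranking by fold does not.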

How the data were processed

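Anti-Flag CUT & Tag of TFK-1 cells gave 1 library for LV-HOXA5 and 1 for LV-HOXA5-NC, and groups were taken from the sample labels. The authors removed duplicates and called peaks in each library on its own with MACS 2.2.7.1 (paired-end fragments, q-value 0.05, effective genome size 2.7e+09 bp, local background over 10000 bp, no control library). fastp, Bowtie2, deepTools, ChIPseeker and GRCh38 are named in the submitters' processing notes. The deposited values are the pileup signal (fragments over the summit, not scaled for depth), the fold enrichment ratio, (pileup + 1) over (local background + 1), and the −log10 p-value and −log10 q-value. Signal of a library depends on its depth, so values were compared within the LV-HOXA5 list. Both deposited forms of each list held the same peaks.

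Peaks sharing 1 bp counted as overlapping. Gene ends were those of 20056 RefSeq protein-coding genes (GRCh38.p14), and directions those of the 15842 with a promoter sequence. The local background was recovered as (pileup + 1) / fold − 1. With 1 library per condition no test was made. Shares have exact 95% binomial intervals (Clopper-Pearson), medians exact order-statistic intervals and pileups exact Poisson intervals, all for counting error only. The layout and overlap steps were tested on simulated data. The peaks and gene lists were chosen with earlier results of these data known. Named were the 10 highest and 5 lowest folds, the peaks next to the 1000 bp limit, the 5 highest with 3 or more genes, the genes of highest fold in each list (up to 4, and further ones of some lists, chosen after their values were seen), the highest pileup and SRGAP2B/FAM72D (also chosen after), and for sequences the head-to-head pairs of highest fold. Of the genes this rule names, 2 are not reported here. Alternatives were limits of 500 and 2000 bp, the summit in place of the edge, a q-value of 0.001 or less, control peaks kept, starts only, a CpG ratio of 0.75, TAATT, and, chosen after seeing the data, any 2 of the near ends. Python 3.11.15, NumPy 2.4.6, SciPy 1.17.1, pandas 2.3.3 and Matplotlib 3.10.9 were used.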

Additional observations from a re-analysis of the deposited data

How the results depend on the processing

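Of 58 values under the alternatives, 46 stayed within their counting intervals or within 1.5 times for counts. These include the values with control peaks kept, which could not move. None of the 506 peaks overlapped a control peak, so that setting returned the same peaks. The share of head-to-head pairs moved from 80.4% to 85% with a limit of 500 bp, 73.9% with 2000 bp, 84.2% with the summit and 92.6% with gene starts only, and it was 82.0% with any 2 of the near ends. The median distance between the ends was 269 bp and 342 bp at limits of 500 and 2000 bp. The share of genes in close pairs with a peak was 13.0% at 2000 bp, 13.0% from the summit and 12.3% at a q-value of 0.001 or less, where the median fold was 5.21. A CpG ratio of 0.75 was reached by 76.9% of the promoters, and TAATT was found in 16.1%. At 2000 bp close pairs were widened as well, to 9285 genes in place of 7286. The stricter q-value and the summit keep fewer peaks, and the CpG ratio of 0.75 and TAATT are stricter by construction. With gene starts only, layouts with the end of a gene cannot occur. Head-to-head pairs and starts on the same strand are then the only layouts left, so that share rises by construction. For the other moves the cause was not tested. The number of peaks was 425, 600, 469 and 441 at 500 bp, 2000 bp, from the summit and at the stricter q-value. No paired analysis was possible because each condition had 1 library, and for the same reason no replicate could be left out. The control depth limits what the lack of control peaks shows, and the direction of 109 pairs was not used.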
